A study of Homo sapiens with 16 samples.

Results

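siCAG, a small interfering RNA (siRNA), was compared with siNT1, a non-targeting control siRNA, in PC3 cells, a line grown from a human prostate cancer. The comparison took in 4 RNA-seq libraries of the 16 in the series, chosen by their labels: siCAG at 24 h, siCAG at 48 h, siNT1 at 24 h and siNT1 at 48 h. Each siRNA was transfected at 1 nM, as the labels have it (the study's methods give another dose), into wild-type cells. The 2 mock libraries of PC3 cells at 24 and 48 h served to check directions, because a control siRNA can itself move genes. The 2 siGGGGGC libraries of PC3 cells shared in the estimate of the spread, and 8 HeyA8 libraries (an ovarian cancer line, with the same treatments and times) gave a comparison in other cells. The siRNAs are named by the treatment labels, and the sample titles read siMxy_3AB for siGGGGGC and siNT_3AB for siNT1. Each siRNA had 1 library per time point, so 24 and 48 h were its 2 replicates. The time point was a term in every main fit, and p-values measure only the spread between these libraries. The 8 PC3 libraries held between 27937092 and 29971612 counted reads. Reads of different cells were pooled in each library, so that fewer cells of a kind and less RNA per cell cannot be told apart. Of the PC3 markers, KRT8, KRT18, KRT19 and VIM had mean mock counts of 7130, 8940, 12100 and 31600, and the androgen target KLK3 had 0. Of the markers of other cells, DCN, CD3E, HBB and CDH5 were at 0 in mock cells, whereas the mean mock counts of COL1A1, CD68 and KDR were 739, 754 and 536.

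An siRNA is a short duplex of which the guide strand is loaded into an Argonaute protein. A target that pairs with the whole guide is cut, and a target that pairs only with the seed, bases 2 to 8 from the guide's 5′ end, is repressed in the way of a microRNA, mostly through the 3′ UTR. The name siCAG holds the triplet CAG, of which CTG is the reverse complement. The sequence of siCAG was not given in the sources used here, so that the matches below are to a pure CTG repeat and not to the siRNA itself. In coding sequences a CTG repeat reads as leucine, alanine or cysteine, depending on the frame, and runs of leucine are common in the signal peptides that send proteins into the secretory pathway.

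The stretches that came closest to a CTG repeat are shown for 9 of the genes that fell furthest, in the order of their match. The best window of 21 bases in the canonical transcript is in capitals, the bases beside it are in lower case, and all are in the sense of the mRNA (hg38, GENCODE release 44). RPL14, CTSA and LRRC59 matched at all 21 bases, NUCB1 and MLEC at 20, PRKCSH and ARSB at 19 and PLEKHB2 and SLC25A22 at 16.
RPL14: ggtaCTGCTGCTGCTGCTGCTGCTGctgct
CTSA: gttcCTGCTGCTGCTGCTGCTGCTGctgct
LRRC59: tgaaGCTGCTGCTGCTGCTGCTGCTatttg
NUCB1: tgccGCTGCTGCTGCTGCTCCTGCTtcgcg
MLEC: gcgaCTGCTGCTGCTGCTGCTGCCGccggc
PRKCSH: gagaTGCTGTTGCCGCTGCTGCTGCtgcta
ARSB: cgtcCTCCCGCTGCTGCTGCTGCTGttgtt
PLEKHB2: cctgACCCTAGCTGCTGCTGCTGCTcactt
SLC25A22: aaccTTGGAAGCTGCTGCTGCTGCTtacag

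The capitals of RPL14 lie at chr3:40462030-40462050 on the plus strand, in the coding sequence, within 10 CTG units that read as alanine. Those of CTSA are at chr20:45891599-45891619 (plus) and those of LRRC59 at chr17:50383145-50383165 (minus), both coding and in the leucine frame. NUCB1 (chr19:48900838-48900858), MLEC (chr12:120687345-120687365) and PRKCSH (chr19:11436119-11436139), all on the plus strand, and ARSB (chr5:78985159-78985179, minus) are also coding, in the leucine frame. PLEKHB2 (chr2:131147383-131147403, plus) and SLC25A22 (chr11:790569-790589, minus) have theirs in the 3′ UTR.

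After siCAG, 176 of 15136 genes tested (1.16%) were lower than after siNT1 and 6 (0.0396%) were higher at an adjusted p under 0.05 (edgeR's quasi-likelihood test, Benjamini-Hochberg adjustment). Of the 176, 158 were at least 2-fold lower (1.04% of genes tested), 57 at least 4-fold and 20 at least 8-fold. At an unadjusted p under 0.05 the counts were 1288 lower and 749 higher. The number of genes lower was 72 without the siNT1 library of 24 h, 30 without that of 48 h, 114 without the siCAG library of 24 h and 32 without that of 48 h, and the number higher was between 0 and 11. With the 4 libraries alone, which leave 1 residual degree of freedom, 1624 were lower and 722 higher, and with the 6 libraries without siGGGGGC 299 and 40. DESeq2 with the same terms and genes called 458 lower and 114 higher.

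RPL14, a protein of the large ribosomal subunit, fell furthest. Its normalized read counts were 16438 and 16313 in the mock libraries of 24 and 48 h, 16271 and 17587 after siNT1, and 569.9 and 405.0 after siCAG. The groups did not overlap, and the siCAG libraries stood far below all others. Its log2 fold change against siNT1 was -5.13 ± 0.21 (SE, n = 2 libraries a side, adjusted p = 0.000145, edgeR).

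PRKCSH, the regulatory subunit of the ER enzyme glucosidase II, which trims sugars of new glycoproteins, had 11769 and 13041 normalized counts after siNT1 and 910.5 and 870.5 after siCAG, a log2 fold change of -3.81 ± 0.22 (SE, adjusted p = 0.00069, edgeR). NUCB1, a calcium-binding protein of the Golgi, went from 3263 and 3567 to 372.5 and 182.2 (log2 fold change -3.71 ± 0.33, SE, adjusted p = 0.00273, edgeR). LRRC59, a membrane protein of the ER, had the highest count of these genes after siNT1, with 23363 and 22001, and 2756 and 1649 after siCAG (log2 fold change -3.40). In each of these genes both siCAG libraries lay below all mock and siNT1 libraries. The rule that named the genes that fell furthest already required this within each time point.

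Among the other genes of high abundance that fell furthest, the methyltransferase ICMT, which finishes the processing of prenylated proteins, had a log2 fold change of -3.43. PLEKHB2, a protein of recycling endosomes, stood at -3.16, CTSA, a lysosomal carboxypeptidase, at -3.05, and SLC25A22, a glutamate carrier of mitochondria, at -2.98. MLEC, an ER lectin, went from 20973 and 21806 counts after siNT1 to 3712 and 2424 after siCAG (log2 fold change -2.82). C9orf69, the sulfhydryl oxidase QSOX1, TM9SF3, the adhesion receptor PVRL2, the secreted protease HTRA1 and EMC7, a subunit of an ER insertase, had log2 fold changes from -2.89 (C9orf69) to -2.42 (EMC7). The best windows of TM9SF3, PVRL2 and HTRA1 matched at 20 bases and began 49, 56 and 27 bases after the start codon, in the leucine frame.

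At lower abundance, NMU, a secreted neuropeptide, had 305.8 and 230.2 counts after siNT1 and 29.03 and 5.94 after siCAG. ARL2, a small GTPase of tubulin folding, had 1031 and 1224 and then 96.8 and 66.3. BRI3BP had a log2 fold change of -3.66, the lysosomal sulfatase ARSB of -3.66 and APLN, the peptide hormone apelin, of -3.22. THRIL, a noncoding RNA, stood at -3.31, but it overlaps BRI3BP on the opposite strand, and as the counting is not stated to use strand the reads of the pair cannot be told apart. Of the 21 genes of both groups, 15 were called lower under every alternative that tested against no change. Without the siNT1 library of 48 h NMU, APLN, CTSA and TM9SF3 lost the call, without the siCAG library of 48 h CTSA, C9orf69, QSOX1 and TM9SF3 did, and without the siNT1 library of 24 h TM9SF3 did.

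**Figure D1:**
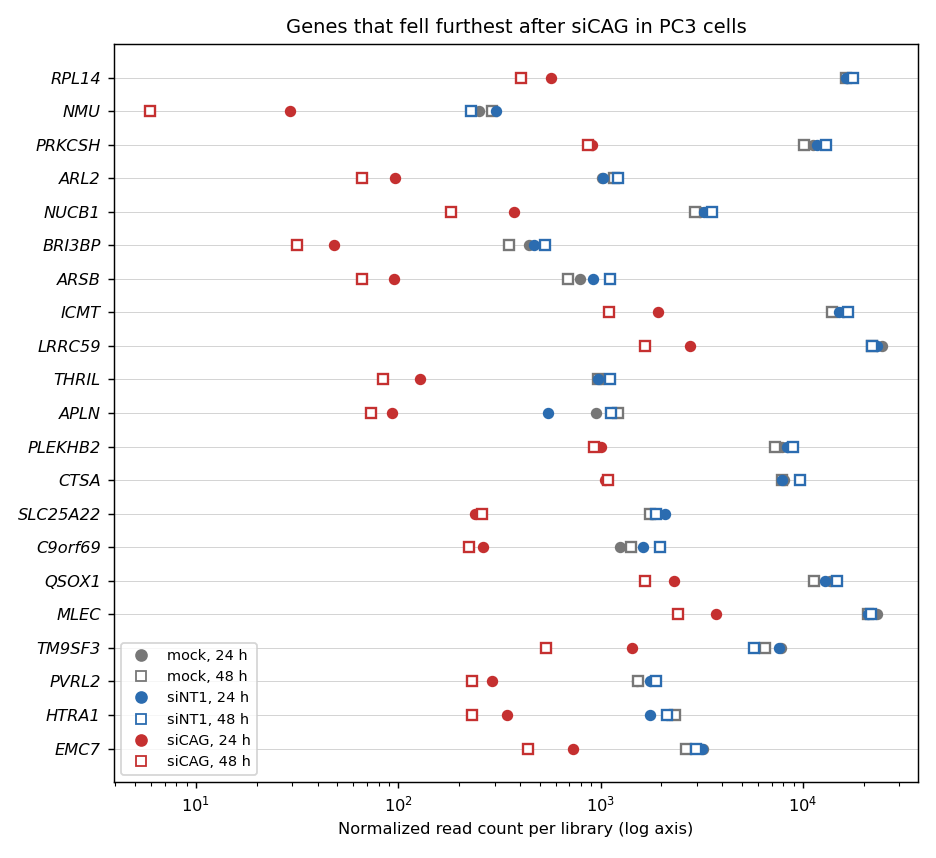
Normalized read counts (log axis) of the 21 leading genes in the 6 PC3 libraries of mock, siNT1 and siCAG cells; circles are 24 h and squares 48 h. The genes were chosen by a rule that required siCAG below mock and siNT1 at each time point. The siCAG libraries therefore lie to the left by selection, and in each gene shown they are left of all mock and siNT1 libraries.

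The direction was then checked against mock cells. Of the 176 genes lower than after siNT1, 174 had a log2 fold change below 0 against mock as well, and 138 were called lower against mock, where 266 of all genes (1.76%) were. In 172 of the 176 both siCAG libraries lay below all mock and siNT1 libraries, which was the case for 14.9% of all genes tested. Over the 176, log2 fold changes had medians of -1.56 (siNT1 as control) and -1.39 (mock as control), beside -0.01 and 0.00 over all genes. Both comparisons use the siCAG libraries, so that they are not independent of each other. The number called lower against mock was 58 and 38 without the mock library of 24 or 48 h, and 425 and 52 without the siCAG library of 24 or 48 h.

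The 38 genes not called against mock had a median log2 fold change of 0.50 for siNT1 against mock. ALPP, placental alkaline phosphatase, had 8.0 and 0.96 normalized counts in mock cells, 107.7 and 60.6 after siNT1, and 4.84 and 3.96 after siCAG. CXCL5, a chemokine, had 137.0 and 60.4, then 502.7 and 288.7, then 198.3 and 82.2. Both were called lower than siNT1 (log2 fold changes -4.20 and -1.55) and stood at 0.04 and 0.49 against mock. CDS1 and DNAJB11 were the other genes of which the siCAG libraries did not lie below both mock libraries. CDH1, the epithelial cadherin, had 288.0 and 275.9 in mock cells, 806.4 and 628.8 after siNT1, and 241.9 and 229.8 after siCAG, a call against siNT1 that was lost without any 1 of the 4 libraries. Across all genes, siNT1 against mock called 31 higher (0.205%) and 4 lower (0.0264%), and 0 in either direction without any 1 of its 4 libraries (DESeq2 with all of them called 173 and 93, and at an unadjusted p under 0.05 edgeR called 780 and 584). Of the 176, siNT1 was called higher than mock for 4 (ALPP, CXCL5, CDH1 and EPHB2) and lower for 1, MSMP, a secreted microseminoprotein. ALPP, CXCL5, CDS1, EPHB2 and MSMP were named after their values were seen.

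None of the 6 genes that were higher than after siNT1 was called against mock. In all 6, FSTL1, PITHD1, MED20, OXSR1, STARD7 and POLE3, both siNT1 libraries lay below both mock libraries. MED20, a subunit of the Mediator complex, had 925.1 and 918.7 normalized counts in mock cells, 407.3 and 434.6 after siNT1, and 834.0 and 904.1 after siCAG. STARD7, a lipid carrier, had 8823 and 8544, then 5232 and 4123, then 8801 and 9217. Against siNT1 the median of the 6 log2 fold changes was 1.01, and against mock it was 0.06. FSTL1, a secreted glycoprotein, was the one with the largest value against mock, 0.71 ± 0.23 (SE, adjusted p = 0.136, edgeR), with 22177 and 35621 counts after siCAG beside 18253 and 16169 in mock cells and 11342 and 11219 after siNT1. All 6 lost the call when either siNT1 library or the siCAG library of 48 h was left out. Without the siCAG library of 24 h, 5 of the 6 lost it and FSTL1 did not.

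**Figure D2:**
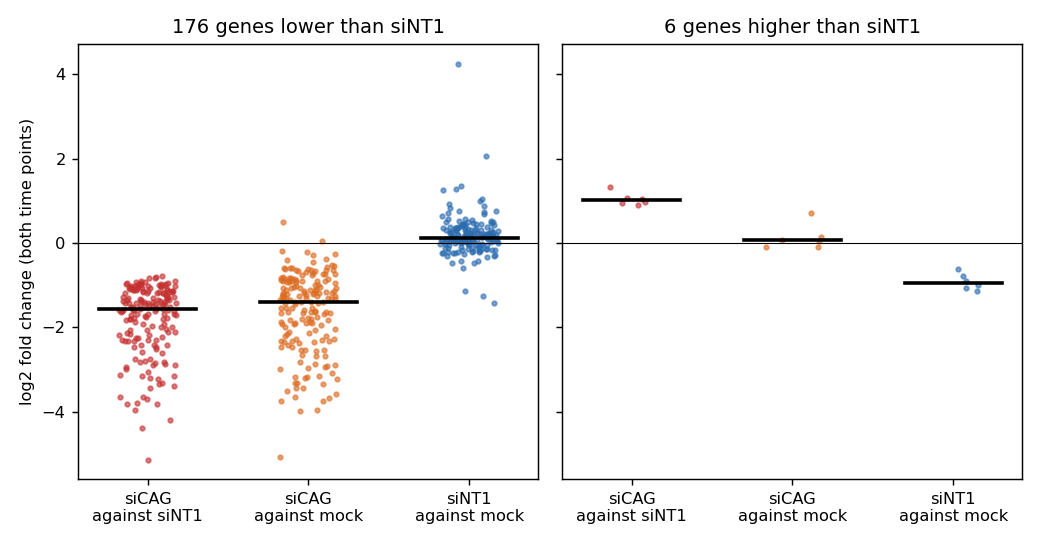
log2 fold changes over both time points of the 176 genes lower (left) and the 6 genes higher (right) after siCAG than after siNT1; each point is a gene and the bars are medians. The lower genes keep a median of -1.39 against mock, and the higher genes have 0.06.

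All 176 lower genes were below siNT1 at both time points, which the test over both times favours. At 24 h the median of their log2 fold changes was -1.35 and at 48 h -1.75. The value of 48 h was the lower of the pair in 161 of them (91.5%) and in 47.8% of all genes tested. RPL14 stood at -4.83 at 24 h and -5.43 at 48 h. Over all genes, 404 were at least 2-fold lower and 225 at least 2-fold higher at 24 h, and 880 and 539 at 48 h. These values have 1 library of each siRNA behind them and no test.

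From 1 unit on, the log2 fold change was lower in genes with longer CTG runs in the transcript. A canonical transcript was matched to 14640 of the genes tested, 175 of the 176 lower genes among them. The 5 genes without CTG had a median of -0.63. The median was 0.05 for the 2420 genes with 1 CTG unit and 0.00 for the 9754 with 2. It was -0.06 with 3 units (2034 genes, 1.52% called lower), -0.28 with 4 (278 genes, 13.3%), -0.76 with 5 (74 genes, 25.7%), -1.51 with 6 (41 genes, 48.8%), -1.99 with 7 (17 genes, 58.8%) and -2.06 with 8 or more (17 genes, 70.6%). Over all genes with a transcript it was -0.01, with 1.20% called lower. For the 75 genes with 6 or more units, of which 42 were called lower, the median was -1.68 against siNT1 and -1.65 against mock. siGGGGGC against siNT1, in the same cells, gave these 75 genes a median of 0.13.

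Runs of CAG, the triplet in the name itself, went with no such change. The 41 genes without CAG had a median of -0.14, and none was called lower. The 139 genes with 6 or more CAG units had a median of -0.04, and 1 of them was called lower, NUCB1, which also carries the CTG window shown above. Of the genes with the longest CAG runs, the Huntington disease gene HTT had 3693 and 4666 normalized counts after siNT1 and 3506 and 4538 after siCAG, and the general transcription factor TBP had 450.4 and 543.5 and then 337.7 and 365.4 (log2 fold change -0.50 ± 0.19, SE, adjusted p = 0.32, edgeR). For triplets of other kinds with 5 or more units in a row, taken in any frame, the median ran from -0.38 (5 genes) to 0.03 (3 genes), beside -1.25 for the 187 genes with CTG.

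**Figure D3:**
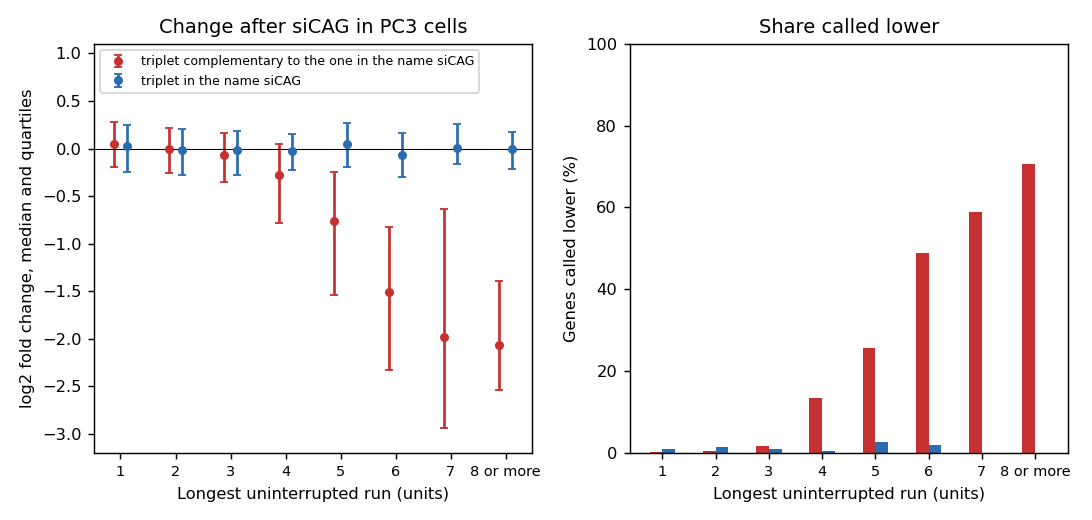
Left, median log2 fold change (siCAG against siNT1, PC3 cells) with quartiles for genes by their longest uninterrupted run of the triplet complementary to the name (red) or of the triplet in the name (blue), and right, the share called lower, with genes that lack the triplet not drawn. From 1 unit on, the red medians go down to -2.06 at 8 or more units, and the blue ones lie between -0.07 and 0.04.

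Counting the match of the best window of 21 bases, which allows for single interruptions, gave a like order. The median was -0.11 at 17 matching bases (574 genes), -0.18 at 18, -0.49 at 19, -1.35 at 20 and -1.95 at 21 (42 genes). Windows with 18 or more matching bases were found in 100 of the 175 lower genes (57.1%) and in 3.51% of all genes with a transcript. With 20 or 21, the 98 genes with the window in the coding sequence had a median of -1.53 (51 called lower), the 12 with it in the 5′ UTR -1.17 (6 called lower, BPGM, BZW2, CRIPT, PAPSS2, RPS6KA3 and TTC7A) and the 10 with it in the 3′ UTR -0.79 (APLN, CASK and YIF1B called lower). Differences between regions were not tested. In 71 of the 98 coding windows the start lay within 90 bases of the start codon, and 38 of these genes were lower (53.5%, median -1.54), beside 13 of the 27 with the window further on (48.1%, median -1.41). For runs of 5 or more units, the 94 genes in the leucine frame had a median of -1.42 (43 called lower), the 15 in the alanine frame -1.11 (6 called lower) and the 6 in the cysteine frame -0.09 (2 called lower), and the frames were not tested against each other.

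Of the genes with the longest runs, 3 are shown because their log2 fold changes were nearer to 0 than -1.40, the upper quartile of the 17 genes with 8 or more units, with the best window in capitals again.
DMPK: ggaaTGCTGCTGCTGCTGCTGCTGCtgctg
CASK: acatTGCTGCTGCTGCTGCTGCTGCtgctg
MAP3K4: agccCTGCTGCTGCTGCTGCTGCTGctgct

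DMPK, the myotonic dystrophy kinase, has the longest run, 20 units in the 3′ UTR of the reference (chr19:45770246-45770266 for the capitals, minus strand). Its counts were 474.0 and 565.1 after siNT1 and 269.0 and 321.8 after siCAG, which did not pass the test (log2 fold change -0.81 ± 0.18, SE, adjusted p = 0.0966, edgeR). CASK, a scaffold kinase with 16 units in the 3′ UTR (chrX:41517802-41517822, minus), went from 1488 and 1774 to 830.2 and 852.6 (log2 fold change -0.95 ± 0.16, SE, adjusted p = 0.0407, edgeR), a call lost without any 1 of the 4 libraries. In DMPK and CASK both siCAG libraries lay below all mock and siNT1 libraries. MAP3K4, a stress kinase with 11 units in the coding sequence in the alanine frame (chr6:161098319-161098339, plus), had 1498 and 1489.8 and then 1507 and 1463, so that the groups overlapped (log2 fold change -0.01 ± 0.15, SE). The lipoprotein receptor LRP8 has as many units, in the leucine frame, and went from 2643 and 2755 to 1199.8 and 741.7 (log2 fold change -1.50), a call lost without either siNT1 library or the siCAG library of 48 h. LTBP3, with 10 units, had 1566 and 934.0 and then 521.5 and 388.2 (log2 fold change -1.43 ± 0.35, SE, adjusted p = 0.137, edgeR). Of the 17 genes with 8 or more units, ADAMTS2 and DCHS1 were also not called, at low counts. The mean normalized count of DCHS1 was 15.4 after siNT1 and 2.45 after siCAG (log2 fold change -2.54 ± 0.80, SE, adjusted p = 0.222, edgeR), and that of ADAMTS2 was 13.4 and 14.7 (log2 fold change 0.18 ± 0.58, SE). Run lengths are those of the reference genome, and those of PC3 cells were not measured.

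Genes without a long match to CTG were also among the lower ones. Of the 175, 63 had at most 16 matching bases in their best window, with a median of -1.17 beside -2.15 for the 60 with 20 or 21. Among genes with at most 16 and a 3′ UTR (12333 genes, 62 called lower), those with TGCTGCT in the 3′ UTR numbered 2911 (23.6%) and included 44 of the 62 (71.0%). Their median log2 fold change was -0.12, beside 0.03 for the genes without it. Both other frames of the repeat gave smaller shifts, -0.04 beside 0.01 for CTGCTGC and -0.06 beside 0.01 for GCTGCTG. They too were more frequent among the 62, with CTGCTGC in 48.4% (21.9% of the genes) and GCTGCTG in 53.2% (22.3%). These 7-base words overlap in longer repeats. For the reverse complement AGCAGCA the medians were -0.03 and 0.00. The words were searched on the mRNA strand of the 3′ UTR alone. The order was kept in short, middle and long 3′ UTRs, with -0.09, -0.12 and -0.12 for genes with TGCTGCT and 0.07, 0.01 and -0.02 for genes without. In HeyA8 cells the medians with and without TGCTGCT were -0.12 and -0.01, and after siGGGGGC in PC3 cells -0.01 and 0.01.

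TGCTGCT is the reverse complement of the seed AGCAGCA, which the miR-15/16 family of microRNAs carries. The mature sequences from RefSeq (GRCh38.p14) are shown with the seed in capitals, because they share these letters with a CAG repeat.
hsa-miR-16-5p: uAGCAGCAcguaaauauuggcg
hsa-miR-15a-5p: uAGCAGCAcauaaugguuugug
hsa-miR-195-5p: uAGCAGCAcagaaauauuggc
hsa-miR-424-5p: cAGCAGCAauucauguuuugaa
A pair of cell cycle genes known as targets of this family illustrates the sites, with the 7 bases in capitals. Both genes were chosen after their values were seen.
CDC25A: aagttacacagaaaTGCTGCTggccaaa
CCND3: gtgattgacagcttTGCTGCTgaaggct

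CDC25A, a phosphatase that starts the cell cycle, has 2 such sites, the one shown at chr3:48158574-48158580 and the other at chr3:48158265-48158271, and CCND3, cyclin D3, has 1, at chr6:41935320-41935326, all on the minus strand and in the 3′ UTR. CCND3 had 1648 and 1602 normalized counts in mock cells, 1757 and 1711 after siNT1, and 727.6 and 624.9 after siCAG (log2 fold change against siNT1 -1.36 ± 0.16, SE, adjusted p = 0.00662, edgeR). CDC25A had 1556 and 1578, then 2528 and 3421, then 1083 and 932.9. It was lower than after siNT1 (log2 fold change -1.57 ± 0.23, SE, adjusted p = 0.0188, edgeR), and against mock the value was -0.64 (adjusted p = 0.157, edgeR). The siCAG libraries of both genes lay below all mock and siNT1 libraries. Both calls were lost without the siNT1 or the siCAG library of 48 h, that of CCND3 also without the siNT1 library of 24 h and that of CDC25A without the siCAG library of 24 h.

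Of the 46 proteins of the large ribosomal subunit tested, RPL14 was the 1 called (1.16% of all genes were called lower), and the list's median was 0.24, beside -0.01 over all genes. RPLP0, the most abundant, had 60745 and 78956 counts after siNT1 and 59052 and 76944 after siCAG. None of the 32 small subunit proteins was called (median 0.21). In the list of ER folding and glycan processing, 4 of 33 were lower than after siNT1 (PRKCSH, NUCB1, PDIA6 and DNAJB11), beside 1.16% of all genes. The list was written when PRKCSH and NUCB1 were already known from earlier results of these data. Its counts of calls are therefore not independent of these data. The list's median was -0.47 against siNT1 and -0.22 against mock. PDIA6, a disulfide isomerase, and DNAJB11, a co-chaperone of HSPA5, had log2 fold changes of -0.84 and -0.78, and both lost the call when any 1 of the 4 libraries was left out. The chaperone HSPA5 had 23056 and 18186 counts in mock cells, 38719.5 and 30122 after siNT1 and 21977 and 19526 after siCAG, which did not pass against either. Against mock 2 of the 33 were lower, the same PRKCSH and NUCB1 that were known beforehand, beside 1.76% of all genes.

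Of 14 genes of the RNA interference machinery, TARBP2, a partner of Dicer, was the 1 lower than after siNT1 (1.16% of all genes were), with 1012 and 1274 counts and then 478.0 and 528.8 (log2 fold change -1.18 ± 0.19, SE, adjusted p = 0.0286, edgeR). It had 859.1 and 852.6 in mock cells and did not pass against them (adjusted p = 0.073, edgeR). AGO2, the cutting Argonaute, had 2581 and 3266 and then 2178 and 2824. In the list of the integrated stress and unfolded protein response, PSAT1, an enzyme of serine synthesis, was the 1 of 26 that was lower than after siNT1 (log2 fold change -0.96 ± 0.16, SE), again beside 1.16% of all genes. The calls of TARBP2 and PSAT1 against siNT1 were lost without any 1 of the 4 libraries. Against mock PSAT1 was also the 1 of 26 lower (1.76% of all genes were), and 5 others were higher (0.826% of all genes were), ATF3, DDIT3, PPP1R15A, SESN2 and SLC3A2. None of these 6 calls against mock stood without the mock library of 24 h, ATF3 alone did without the mock or the siCAG library of 48 h, and ATF3, PPP1R15A, PSAT1 and SLC3A2 did without the siCAG library of 24 h. Dropping the term for time point also ended the calls of DDIT3 and PPP1R15A against mock (adjusted p = 0.0739 and 0.0768, edgeR). ATF3 had means of 70.93 in mock cells, 540.5 after siNT1 and 427.0 after siCAG. In the same order DDIT3 had 409.8, 834.8 and 816.6, and SESN2 had 194.9, 542.1 and 415.1. SLC3A2 had 2801, 5603 and 7289, and PPP1R15A had 1432, 2410 and 3287. All 5 were thus already above mock after siNT1, and none of them was called against siNT1. Their log2 fold changes against siNT1 were -0.35 (ATF3), -0.04 (DDIT3), -0.38 (SESN2), 0.38 (SLC3A2) and 0.48 (PPP1R15A). The kinase EIF2AK3 (PERK), an ER stress sensor with 8 CTG units in the leucine frame, was named after its values were seen and went from 986.0 and 960.7 to 342.5 and 186.2. Its call was lost without the siNT1 or the siCAG library of 48 h.

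None of the 38 mitosis genes passed against siNT1, though all had values below 0 (median -0.58, between -1.60 and -0.05). The median was -0.27 at 24 h and -0.84 at 48 h. Against mock, 8 of the 38 were lower (CDK1, CENPE, CENPF, NDC80, NUF2, NUSAP1, PLK1 and PRC1), beside 1.76% of all genes. Of these 8 calls, CENPE alone stood without either mock library or the siCAG library of 48 h, and all 8 did without the siCAG library of 24 h. Dropping the term for time point also left CENPE alone. Testing only genes with a mean of at least 100 counts left CENPE, NUF2 and PLK1, and RLE scaling left all but PRC1. CENPE, a kinesin of the kinetochore, had means of 3713 in mock cells, 1091 after siNT1 and 631.0 after siCAG, so that most of its distance from mock was already there after siNT1. The means of CENPF in that order were 12196, 5071 and 2396, and those of NDC80 were 2942, 1957 and 1546. CDK1 had 13288, 8580 and 4916, and NUF2 had 1711, 1161 and 565.3. NUSAP1 had 7495, 5016 and 3376, PLK1 3814, 3112 and 2093 and PRC1 5542, 4536 and 3064. In each of the 8 the siNT1 mean lay between the others. CDK1 had 10837 and 6323 counts after siNT1 and 7338 and 2494 after siCAG (log2 fold change -0.90 ± 0.28, SE, adjusted p = 0.213, edgeR). None of 36 DNA replication genes passed (median -0.49), and 2, POLE and TYMS, were lower against mock, beside the same 1.76%, calls lost without either mock library or the siCAG library of 48 h, and that of POLE also without the siCAG library of 24 h. The calls of POLE and TYMS were also lost without the term for time point and with a mean of at least 100 counts. None of 34 apoptosis regulators, 23 interferon response genes, 19 p53 targets, 31 proteasome subunits, 27 RNA polymerase subunits, 9 repeat disease genes with CAG and 2 with CTG was called against siNT1, and their medians were 0.00, 0.29, -0.11, 0.06, 0.10, 0.13 and -0.32. BMF, a BCL2 family death factor, and the antiviral gene RSAD2 were higher against mock (0.826% of all genes were), as was the p53 target SESN2 above. The calls of BMF and RSAD2 were lost without either mock library or the siCAG library of 48 h, and that of SESN2 without any 1 of the 4. RSAD2 also lost its call without the term for time point. Of the marker lists, CDH1 was the 1 called lower than after siNT1 of 6 PC3 markers, KRT8, KRT18, KRT19, EPCAM, CDH1 and VIM (1.16% of all genes were). None of 4 androgen response, 5 fibroblast, 3 immune and 2 endothelial genes passed.

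**Figure D4:**
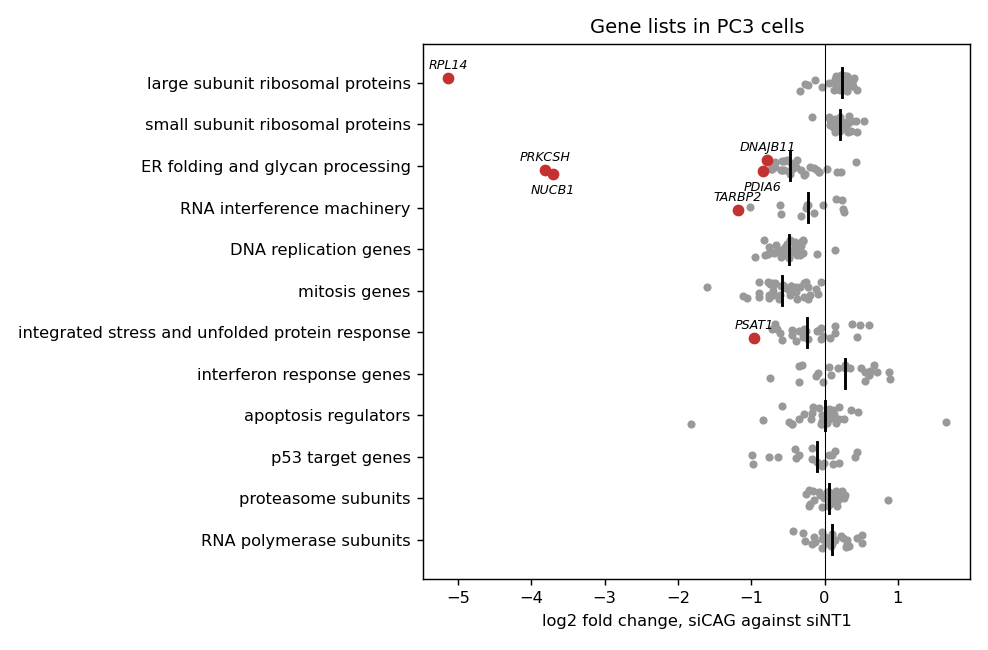
log2 fold changes (siCAG against siNT1, PC3 cells) of the tested members of 12 gene lists; red points passed the test, grey points did not, and black bars are list medians. RPL14 stands at -5.13 among large subunit proteins with a median of 0.24, and the 38 mitosis genes lie below 0 with none passing.

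In HeyA8 cells, whose libraries the PC3 comparison did not use, siCAG against siNT1 gave 684 lower genes (4.93%) and 399 higher genes (2.88%). At an unadjusted p under 0.05 (edgeR) they numbered 2088 and 2006. Of the 176 genes lower in PC3 cells 169 were tested in HeyA8 cells, and 101 were called lower there. These are 57.4% of the genes lower in PC3 cells and 14.8% of those lower in HeyA8 cells. Of all genes tested in both lines, 5.03% were called lower in HeyA8 cells. The log2 fold change was below 0 for 164 of the 169 (97.0%, beside 50.6% of all HeyA8 genes), with a median of -1.59. RPL14 had 25859 and 25946 normalized counts after siNT1 in HeyA8 cells and 446.8 and 227.4 after siCAG. PRKCSH stood at -3.88 in HeyA8 cells and -3.81 in PC3 cells, and NUCB1 at -3.44 and -3.71. The 5 genes above 0 were MSMP, FUCA1, LRP1, SIPA1L2 and SLC27A3. The HeyA8 count rests on single libraries, with 53 and 42 lower without the siNT1 library of 24 or 48 h and 2498 and 3119 without that of siCAG.

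An interaction term for the cell line called 101 of 15887 genes (0.636%). Over all genes its median was -0.13. Of the 176 lower genes 3 were called, MSMP, ZNF367 and FUCA1, named after their values were seen. ZNF367, a zinc finger gene, had 1424 and 1371 counts after siNT1 and 702.5 and 377.3 after siCAG in PC3 cells, and 4349.7 and 2881 and then 113.9 and 84.4 in HeyA8 cells. The numbers of genes called by the interaction were between 0 and 33 in each direction without 1 of the PC3 libraries or of the siNT1 libraries of HeyA8 cells, and between 305 and 790 without 1 siCAG library of HeyA8 cells.

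**Figure D5:**
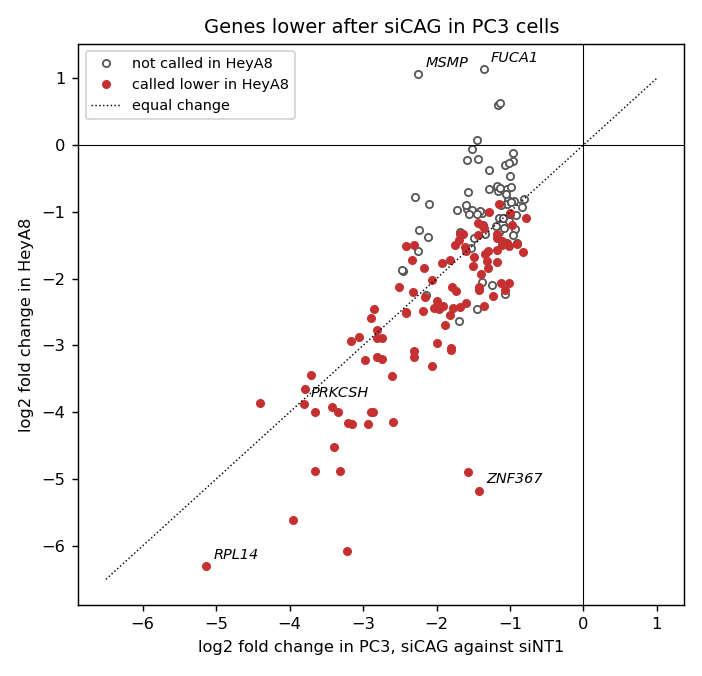
log2 fold changes of siCAG against siNT1 in HeyA8 (vertical) and PC3 cells (horizontal) for the 169 genes lower in PC3 cells and tested in both; filled points were called lower in HeyA8 cells, and the dotted line marks equal change. Of these genes 164 lie below 0 in HeyA8 cells, and MSMP and FUCA1 lie above 1.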

How the data were processed

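The deposited file holds whole-number read counts per gene for 26485 genes, named by symbol, without normalization. The authors sequenced total RNA, trimmed and aligned the reads (hg38) and took those in exons as counts (the submitters' processing notes name STAR and HTSeq; versions are not given there). Columns that belong to no sample numbered 0. Low genes were removed with filterByExpr (groups by siRNA), and the rest were scaled by TMM and tested with edgeR 4.0.16 (R 4.3.3), with siRNA and time point as terms over the 8 libraries of a line, or over all 16 for the interaction. Residual degrees of freedom numbered 3 in PC3 cells, and an SE is the log2 fold change divided by the square root of its F value. The remaining coefficient of variation was 18% in PC3 and 28.2% in HeyA8 cells. Normalized read counts are TMM-scaled, and single-time log2 ratios use a prior count of 2.

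Named genes were the 15 lowest with an adjusted p under 0.05 and a mean of at least 1000, the 6 lowest with 100 to 1000 (all below mock at both times), all that rose, list members that passed and up to 4 abundant ones that did not, the 6 longest CTG and 4 longest CAG runs, and RPL14, PRKCSH and NUCB1. Some items that the rule names are not reported here. Members, lists and rules were chosen with earlier results of these data known. Transcripts came from GENCODE release 44 on hg38, through the same symbol for 13763 genes and an older one for 877. In counts simulated from these PC3 libraries, 89 of 100 genes lowered 4-fold and 41 of 100 lowered 2-fold were called, with 14 false calls. The alternatives used DESeq2 1.42.0, RLE scaling, other filters, other sets of libraries, each library left out, no term for time and a 2-fold threshold.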

Additional observations from a re-analysis of the deposited data

Results flagged for a closer look

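The response to siCAG of 4 named genes differed between PC3 and HeyA8 cells in the test of the difference itself (edgeR's quasi-likelihood test of the interaction, Benjamini-Hochberg adjustment). Each difference came from the joint fit of all 16 libraries, and each log2 fold change from the 8 libraries of its line. The differences are therefore not exact subtractions of the log2 fold changes printed, and over all genes their median was -0.13. For MSMP the log2 fold change was -2.25 in PC3 and 1.06 in HeyA8 cells, a difference of -3.42 (adjusted p = 0.00458), lost as a call without the PC3 siNT1 library of 48 h or the PC3 siCAG library of 24 h. ZNF367 stood at -1.42 and -5.17, a difference of 3.64 (adjusted p = 0.00452) that passed in every alternative run. FUCA1, a lysosomal fucosidase, stood at -1.36 and 1.13, a difference of -2.59 (adjusted p = 0.0286), with only 20.29 and 13.04 normalized counts after siNT1 in HeyA8 cells. MAML3, a coactivator of Notch, was among the genes reported because of its long CAG run. It stood at 0.43 in PC3 cells, where it was not called (adjusted p = 0.479, edgeR), and at 2.77 in HeyA8 cells. The difference was -2.44 (adjusted p = 0.0178, edgeR). The HeyA8 counts of MAML3 were 85.97 and 96.69 after siNT1 and 500.8 and 772.5 after siCAG. The calls of FUCA1 and MAML3 were each lost without any 1 of the 4 PC3 libraries or of the 2 siNT1 libraries of HeyA8 cells. Groups of 2 libraries were not tested for outlying samples.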

How the results depend on the processing

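Over 117 gene results and their alternatives (1394 values), 127 values no longer passed and 31 newly passed, all in the same direction, and 32 values of 18 genes changed sign. None of those 18 genes was called in PC3 cells (smallest adjusted p = 0.582, edgeR), nor was any value of changed sign (smallest adjusted p = 0.626). The counts of calls varied more. DESeq2 with the same terms called 458 lower and 114 higher for siCAG against siNT1, 926 and 446 for siCAG against mock, 93 and 173 for siNT1 against mock, 1513 and 1152 in HeyA8 cells and 332 and 339 for the difference between the lines. With no filter beyond 1 count, 22 were higher against siNT1, 518 lower and 237 higher against mock, and 21 lower and 61 higher for siNT1 against mock. With a mean of at least 100 counts, 70 were higher against mock and 1 lower and 6 higher for siNT1 against mock. The 4 libraries alone gave 1624 lower and 722 higher, the 6 without siGGGGGC 299 and 40, and a test against a 2-fold change 46 and 0. All of the 176 lower genes were among those lower with the 4 and with the 6 libraries, and 175 were among those of DESeq2.

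Without the replicate block (the time point, which is also the replicate number), 160 were lower and 5 higher against siNT1, 157 and 68 against mock, 0 and 6 for siNT1 against mock, and 18 and 33 for the difference between the lines. Time points were shared by design, and whether libraries of the same time were prepared together was not given in the sources used here.

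Leaving out 1 library gave 30 to 114 lower and 0 to 11 higher against siNT1, 38 to 425 and 5 to 175 against mock, 0 and 0 for siNT1 against mock, 42 to 3119 and 0 to 2022 in HeyA8 cells, and 0 to 730 and 1 to 790 for the difference. In these fits the lone library is assumed to vary like the other groups. The median of the genes with 6 or more CTG units stayed between -1.93 and -1.57 over 24 h or 48 h alone, mock in place of siNT1, another transcript per gene and RLE scaling. With 2 libraries a side, 41 of 100 simulated 2-fold decreases were called.

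The genes that changed sign had these log2 fold changes for siCAG against siNT1 when 1 library was left out: ATXN2 from -0.056 to 0.083, MAP3K4 from -0.024 to 0.034, PDGFRA from -0.15 to 0.416, COL1A1 from -0.464 to 0.247, HTT from -0.191 to 0.083, PECAM1 from -0.592 to 0.352, RPLP0 from -0.155 to 0.104, PSMA7 from -0.005 to 0.163, CYCS from -0.05 to 0.337, PTPRC from -0.195 to 1.37, TCF4 from -0.239 to 0.497, FOLH1 from -0.709 to 0.954, MDM2 from -0.284 to 0.053, RPS2 from -0.123 to 0.223, TNFRSF10B from -0.014 to 0.259, RPSA from -0.003 to 0.289, CD68 from -0.096 to 0.579 and KDR from -0.023 to 0.759. ATXN2 also stood at 0.002 under RLE scaling, DESeq2 and no replicate block and at 0.011 with a mean of at least 100 counts, where MAP3K4 stood at 0.005.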
